A study of Mus musculus with 46 samples.

Results

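The 34 genes described here are direct transcriptional targets of p53, taken as a list of symbols and read in 23 mouse cell lines on whole-transcript arrays. A probe set that names a single symbol was found for 32 of the 34, with 1 probe set per gene, among 19938 genes measured in all. Gdf15, a secreted stress cytokine, and Fdxr, a mitochondrial ferredoxin reductase, had no such probe set and have no value here. The 32 measured genes were sorted by role into apoptosis (7 genes), death receptors (3), cell cycle (6), DNA repair (5), metabolism and stress (7) and secreted, signalling and RNA proteins (4).

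Each line was measured in 2 cultures, and the mean of their log2 values stands for the line, which is the unit of n. Of the 8 groups, 4 are multipotent germline stem cell (mGS) lines made from germline stem cells by lentivirus, with a p53 knockdown in every route and 3 lines each. The second treatment was a Dnmt1 knockdown in Dnmt mGS, a Dmrt1 knockdown in Dmrt mGS, a Sox2 vector in Sox2 mGS and an Oct4 vector in Oct4 mGS. The pluripotent lines without a p53 knockdown were 2 spontaneous mGS lines, 3 iPS lines (1, 2 and 5) that had received Oct4, Sox2, Klf4 and c-myc by retrovirus and 3 ES lines (R1, B6-6 and BRC1). Germline stem (GS) cells, the cultured spermatogonial stem cells from which mGS cells arise, gave 3 lines. All lines were DBA/2 with a GFP transgene except the ES lines, which were a 129 hybrid (R1), C57BL/6J (B6-6) and (B6xDBA2)x129 (BRC1). Pluripotent lines grew on embryonic fibroblast feeders in serum with LIF, and GS cells on feeders in a serum-poor medium with GDNF and FGF, so medium and cell type cannot be told apart. The level of p53 itself was not analysed here, so the knockdown rests on the labels and was not checked, and the labels do not say whether a line is 1 clone or how much p53 remains. One field of the labels of R1 culture 2 names the line R2, against R1 in the others, and it was kept as R1.

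p53 is a transcription factor that is stabilised after DNA damage and other stress, binds a response element made of a pair of half-sites, and switches on genes that stop the cell cycle, repair DNA, alter metabolism or kill the cell. Its ubiquitin ligase Mdm2 is itself a target and closes a feedback loop. In pluripotent and germline stem cells p53 guards the genome and limits reprogramming, which is why a p53 knockdown is often added to reprogramming vectors.

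Mean marker levels matched the labelled cell types, though not every pluripotency marker did. The mean level of 10 pluripotency genes was 1093 (Sox2 mGS) to 2818 (ES) in the pluripotent groups and 135 in GS. That of 10 germline stem cell genes was 3305 in GS and 161 to 189 in the pluripotent groups. All 10 pluripotency genes lay above background in each pluripotent group, and 4 did in GS. At an adjusted p under 0.05 in limma, 7 of the 10 were higher than in GS in Sox2 mGS and 7 in Oct4 mGS. Of all genes, 19.4% and 20.2% were. In Sox2 mGS Tfcp2l1 read 340, against 446 in GS, and Zfp42 read 330, against 327. All 10 germline stem cell genes lay above it in GS, and 4 to 7 did in the pluripotent groups. The background level, 161 intensity units, is the 95th percentile of olfactory receptor genes. The 20 measured feeder fibroblast markers had a mean level of 187 to 1758 over the 12 knockdown lines, 238 to 938 over the 8 pluripotent lines without the knockdown and 216 to 639 in GS, and 16 to 19 of them lay above background in each group. In a bulk sample, fewer cells of a type and less RNA per cell cannot be told apart. Dnmt1 read 2752 in the line labelled Dnmt mGS 2, against 620 in Dnmt mGS 1 and 647 in Dnmt mGS 3, so that line went against its label for the second knockdown. Dmrt1 read 191, 413 and 554 in Dmrt mGS 1, 2 and 3. It read 230 to 572 in the 8 pluripotent lines without the p53 knockdown and 3379 to 4219.5 in GS. Dmrt mGS 2 and 3 thus lay within the range of those 8 lines. Array medians ran from 215 to 242, with culture 1 of Oct4 mGS 1 apart at 265. Levels are intensities, a difference is the mean log2 level of the group named first minus that of the other, with its standard error from limma, and a gene is said to have risen or fallen only where limma's p, adjusted by Benjamini-Hochberg over all 19938 genes, was under 0.05. Lines are given in the order 1, 2 and 3, with 1, 2 and 5 for iPS and R1, B6-6 and BRC1 for ES.

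The first comparison asks how p53 targets stand in the 12 lines that carry the knockdown, against the 8 pluripotent lines that do not. Over the 32 genes, 7 fell, 1 rose and 24 did not pass, against a background of 23.2% of all genes passing (8.2% lower and 15% higher). The median difference of the 32 was −0.25 and that of all genes 0.06. The 7 that fell were 3 apoptosis genes (Perp, Aen and Trp53inp1), the death receptor Eda2r and 3 cell cycle genes (Plk2, Ckap2 and Gtse1), while the metabolic gene Abhd4 rose. None of the 5 repair genes or the 4 secreted, signalling and RNA genes passed. No gene of the 32 had knockdown lines that all lay outside the range of the other 8, which held for 0.943% of all genes. In the same comparison 5 of the 20 feeder markers rose and 0 fell (median 0.82), and 5 of the 10 pluripotency markers fell and 0 rose (median −0.61). Leaving out the spontaneous line mGS 1 brought the count of called genes down to 3. Of all genes called, 64.6% were higher with values as deposited and 37.9% with each array centred on its median.

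Perp encodes a membrane protein of the PMP-22 family that acts in desmosomes and in p53-dependent apoptosis. Its intensities were 250.5, 136 and 864 for Dnmt mGS, 159.7, 665 and 635 for Dmrt mGS, 802, 887 and 968 for Sox2 mGS and 1006, 724 and 258 for Oct4 mGS. Among lines without the knockdown they were 1818 and 1414 in spontaneous mGS, 1162, 1745 and 2106 in iPS, 700.2, 728 and 969 in ES and 114, 98.6 and 122 in GS. Dnmt mGS 1 and 2, Dmrt mGS 1 and Oct4 mGS 3 stood apart at 258 or less, while no pluripotent line without the knockdown was under 700. The lowest of these, ES R1, is the mean of cultures at 995 and 493, the second being the one with the mixed label. Without that culture none of the calls in this comparison was lost. Perp averaged 502 in knockdown lines and 1272 in the others, a difference of −1.34 ± 0.33 (limma adjusted p = 0.0086).

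Plk2, a polo-like kinase of centriole duplication, followed the same lines. It read 201, 239 and 819 for Dnmt mGS, 214, 833 and 869 for Dmrt mGS, 1060.3, 1063 and 1334 for Sox2 mGS and 977, 653 and 370.4 for Oct4 mGS. The comparison values were 1719 and 1405 in spontaneous mGS, 1389, 1932 and 1576 in iPS, 808, 661 and 776 in ES and 792, 452 and 512 in GS. The same 4 knockdown lines were lowest, at 370.4 or less, and the other 8 ran from 653 to 1334, across the range of ES. The means of 599.8 and 1233 differed by −1.04 ± 0.29 (limma adjusted p = 0.015). Without mGS 1 the difference was −0.99 and no longer passed.

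Eda2r, a TNF-receptor family member that binds ectodysplasin A2, gave the most uniform shift by count of lines, with 10 of 12 knockdown lines below the lowest of the other 8. Its levels were 195, 466 and 857 for Dnmt mGS, 368, 743 and 864 for Dmrt mGS, 1094, 704 and 972 for Sox2 mGS and 849, 444 and 747 for Oct4 mGS. They were 1411 and 1061 in spontaneous mGS, 1070.1, 1255 and 1296 in iPS, 971, 1175 and 1054 in ES and 172, 92.7 and 98.4 in GS. Only Sox2 mGS 1 and Sox2 mGS 3 reached the range of lines without the knockdown. The means were 629.6 with the knockdown and 1161 without it (−0.88 ± 0.23, limma adjusted p = 0.013), and the call was lost without mGS 1 (−0.81).

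Ckap2, a microtubule-associated protein of the mitotic spindle, had the smallest adjusted p of the 32. It read 846, 1017 and 1346 for Dnmt mGS, 819, 1083 and 1125 for Dmrt mGS, 1450.2, 1278 and 1353 for Sox2 mGS and 1320.1, 1093 and 1275 for Oct4 mGS. Elsewhere it read 1552 and 1700.0 in spontaneous mGS, 1532, 1656 and 1751 in iPS, 1869, 1332 and 1430.3 in ES and 1473, 1272 and 1325 in GS. In 9 of 12 knockdown lines it lay below the lowest pluripotent line without the knockdown, ES B6-6, although the size of the shift was modest (−0.47 ± 0.09, 1149.6 against 1598, limma adjusted p = 0.0014). No line left out in turn ended this call, nor that of Aen or Perp.

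Aen, a nuclease that takes part in DNA fragmentation during apoptosis, read 485, 542 and 781 for Dnmt mGS, 557, 837 and 789 for Dmrt mGS, 759, 736 and 771 for Sox2 mGS and 889, 701 and 646 for Oct4 mGS. In the other groups it read 986 and 884 in spontaneous mGS, 925, 994 and 960.1 in iPS, 996, 766 and 906 in ES and 585, 695 and 649 in GS. In 7 of 12 knockdown lines it was below the lowest pluripotent line without the knockdown, and the mean shift was −0.41 ± 0.10 (697 against 925, limma adjusted p = 0.0059). Gtse1, a microtubule-binding protein of the later cell cycle that restrains p53, read 1357, 1473 and 1695 for Dnmt mGS, 1379, 1558 and 1739 for Dmrt mGS, 1806, 1438 and 1629 for Sox2 mGS and 1997, 1429 and 1794 for Oct4 mGS. Its values elsewhere were 2330.5 and 1813 in spontaneous mGS, 1955, 2092 and 2012 in iPS, 1542, 2016 and 1813 in ES and 971, 893 and 994 in GS. Of the knockdown lines, 5 were below the range of the lines without it, and the mean shift was −0.29 ± 0.08 (limma adjusted p = 0.014), or −0.23 and not called without mGS 1.

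Trp53inp1, a nuclear stress protein that promotes p53 activity, read 2434, 3188 and 3884 for Dnmt mGS, 3088, 2729 and 2921 for Dmrt mGS, 3768, 2598 and 3230.3 for Sox2 mGS and 3349, 2311 and 2961 for Oct4 mGS. In lines without the knockdown it read 4399.5 and 3646 in spontaneous mGS, 3577, 4108 and 4288 in iPS, 3222, 3224 and 2944 in ES and 2699, 2637 and 2820.2 in GS. The mean shift was −0.29 ± 0.09 (limma adjusted p = 0.027), with 5 of 12 knockdown lines under the range, and it lost its call without mGS 1, iPS 2 or iPS 5 and after quantile normalization (−0.25). Abhd4, a lipase of N-acyl phospholipid metabolism, went the other way with 994, 1481 and 1282 for Dnmt mGS, 1347, 1511 and 1443 for Dmrt mGS, 1719.5, 1833 and 1857 for Sox2 mGS and 2013, 1873 and 1494 for Oct4 mGS. It read 1351 and 1573 in spontaneous mGS, 1015, 1342 and 1618 in iPS, 892, 1144 and 1094 in ES and 1515, 1412 and 1313 in GS. The shift was 0.30 ± 0.09 (limma adjusted p = 0.025), with 5 of 12 knockdown lines above the range. Its call was lost with each array centred on its median (0.24), with the feeder marker level as a covariate (0.22), and without ES R1, iPS 1 or mGS 1.

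**Figure D1:**
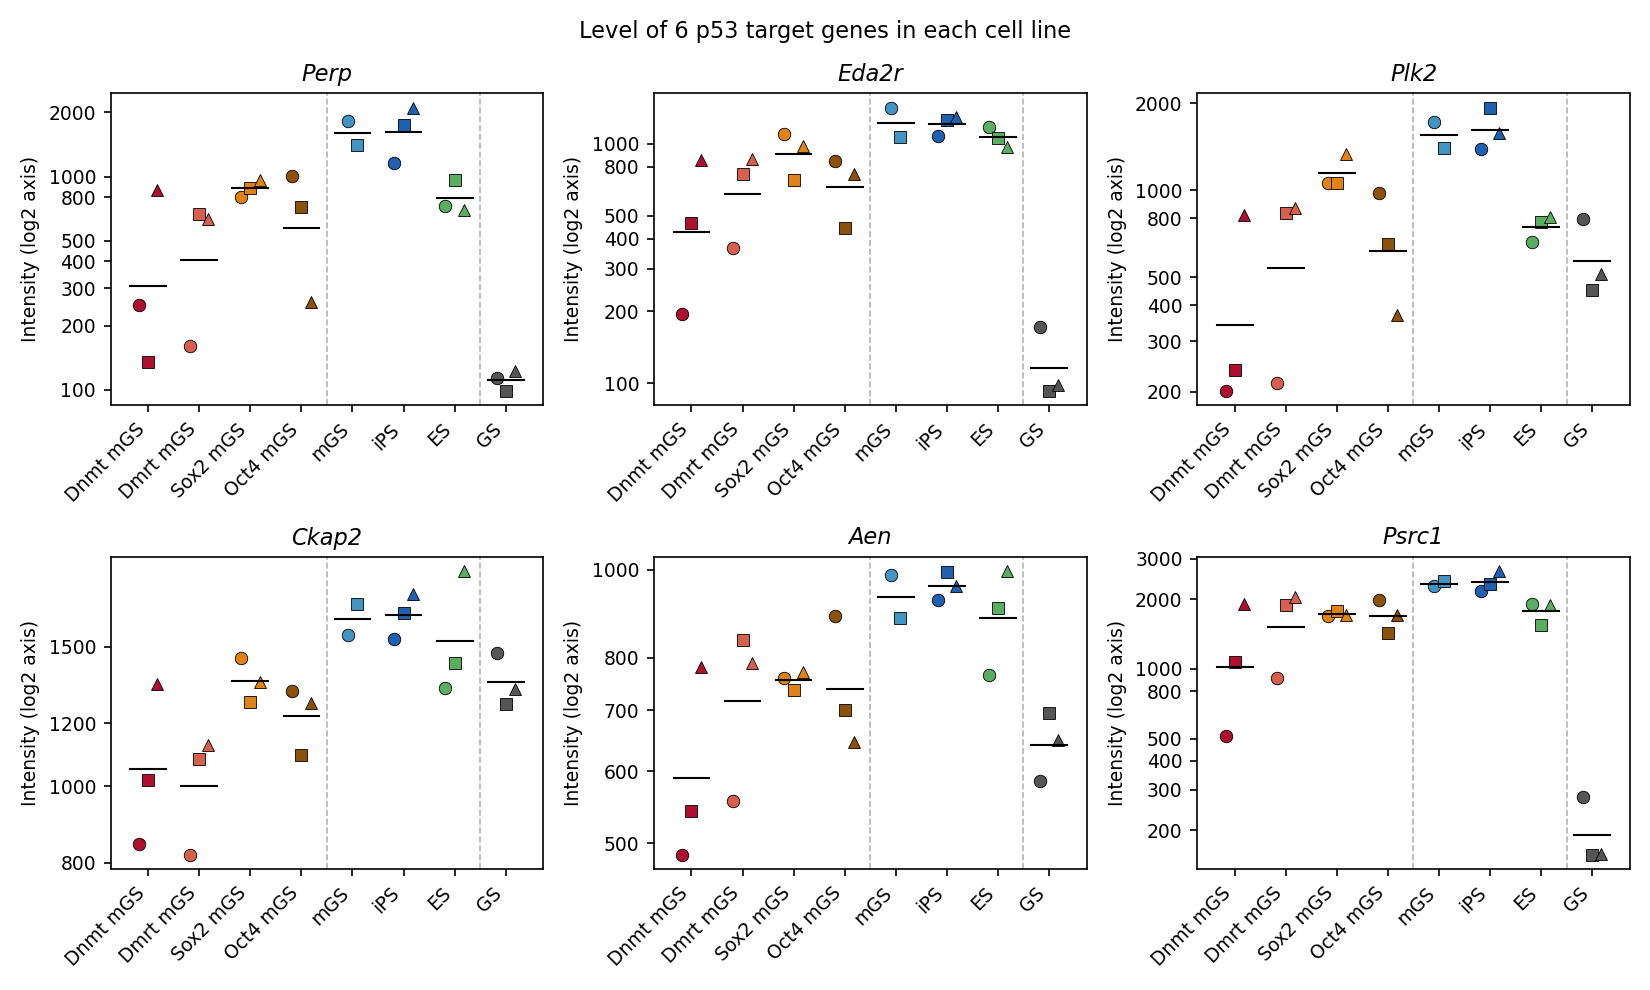
Intensity (log2 axis) of Perp, Eda2r, Plk2, Ckap2, Aen and Psrc1 in each of 23 lines, with 1 point per line and a bar at the group mean of log2 values, and dashed lines that separate the knockdown routes, the pluripotent groups without the knockdown and GS. Perp in knockdown lines ran from 136 to 1006, against 700 to 2106 in pluripotent lines without the knockdown and 98.6 to 122 in GS.

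Promoter sequence is shown for the genes whose windows hold a pair of half-sites of the p53 consensus, Ckap2 and Gtse1, which fell, and Sesn1, which did not pass in this comparison (0.04 ± 0.11). Aen, which fell, is added as an example of a single half-site. Of the 34 genes, 26 have a promoter in RefSeq's table for GRCm38.p6, as a window of 250 bases before to 50 bases after the start site. An exact p53 consensus half-site of 10 bases, searched on both strands, was in 7 of the 26 genes (26.9%), and in 9.55% of 27025 genes. Besides the 4 shown, these were Abhd4, which rose, and Ei24 and Polk, which did not pass. A pair of half-sites with at most 2 mismatches and a spacer of at most 13 bases was in 3 of the 26 (11.5%), Ckap2, Gtse1 and Sesn1, and in 4.71% of all genes. Each stretch below runs 5′ to 3′ on the gene's own strand, with the matched half-sites in capitals. The Ckap2 stretch lies at chr8:22185953-22186069 on the minus strand, with its element starting 203 bases before the start site and 2 mismatches. The Gtse1 stretch, at chr15:85859895-85859970 on the plus strand, has 1 mismatch and an element that spans the start site. The Sesn1 stretch, at chr10:41887203-41887325 on the plus strand, has 2 mismatches and a spacer of 3 bases. The Aen stretch, at chr7:78895887-78895996 on the plus strand, has 1 exact half-site 121 bases before the start site. A match describes letters only, and binding was not measured.
Ckap2: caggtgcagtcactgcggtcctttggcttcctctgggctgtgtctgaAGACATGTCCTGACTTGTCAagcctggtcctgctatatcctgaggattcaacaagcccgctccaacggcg
Gtse1: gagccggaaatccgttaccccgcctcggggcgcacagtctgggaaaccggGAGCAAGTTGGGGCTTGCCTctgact
Sesn1: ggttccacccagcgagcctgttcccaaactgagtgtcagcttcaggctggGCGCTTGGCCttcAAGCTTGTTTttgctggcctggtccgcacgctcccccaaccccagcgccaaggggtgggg
Aen: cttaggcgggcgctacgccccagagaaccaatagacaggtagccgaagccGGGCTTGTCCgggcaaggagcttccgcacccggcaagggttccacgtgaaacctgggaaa

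The knockdown lines were far from uniform, and the feeder marker level ran alongside. The 3 knockdown lines with a feeder level under 400, Dnmt mGS 1 (336), Dnmt mGS 2 (187) and Dmrt mGS 1 (186), had 21, 15 and 17 of the 32 genes below the lowest pluripotent line without the knockdown, where 19.7%, 19.1% and 17.7% of all genes were. The next lowest in feeder level, Oct4 mGS 3 (539), had 14 of the 32 (background 14.2%), and so did Oct4 mGS 2 at a feeder level of 1058 (background 15%). Dmrt mGS 2 and 3 had 6 each (background 11.9% and 11.7%), Sox2 mGS 1, 2 and 3 had 2, 9 and 3 (16.7%, 16.9% and 18.6%), Oct4 mGS 1 had 4 (14.3%) and Dnmt mGS 3 had 1 (14.2%). The 1 gene under the range in Dnmt mGS 3 was Eda2r.

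**Figure D2:**
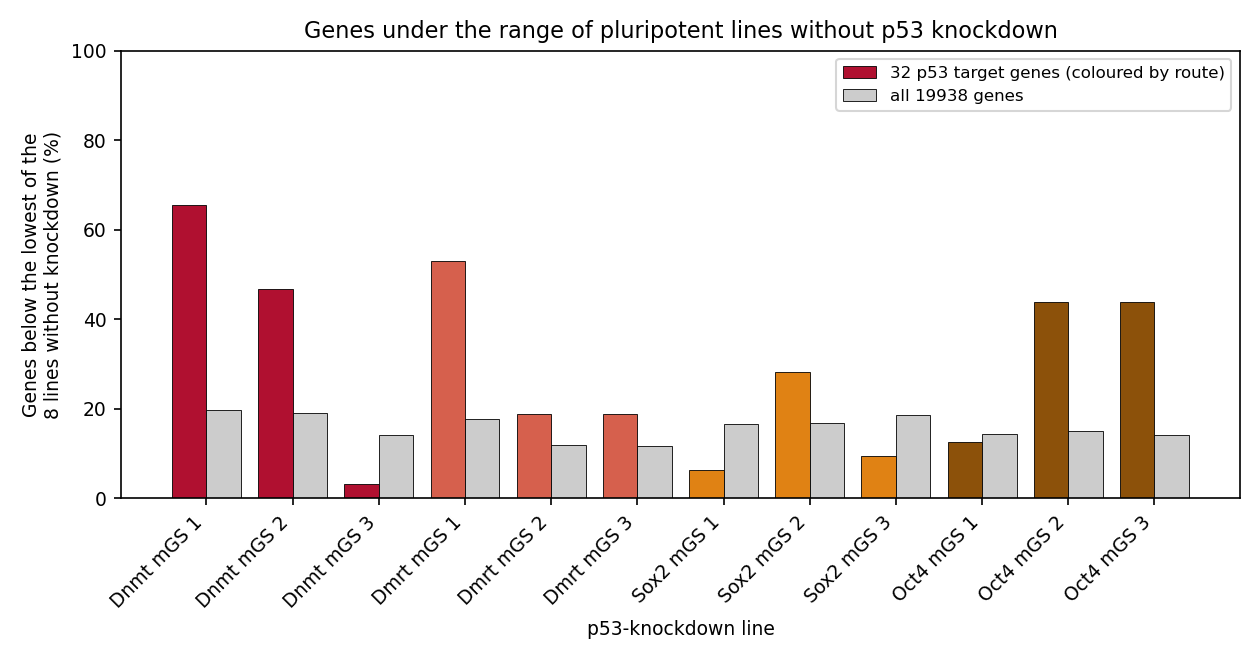
Percent of the 32 measured p53 target genes (coloured bars) and of all 19938 genes (grey bars) whose intensity in a knockdown line lay below the lowest of the 8 pluripotent lines without the knockdown, for each of the 12 knockdown lines. Dnmt mGS 1, with 21 of the 32 genes, is highest, and Dnmt mGS 3, with 1, is lowest.

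The values of these 3 lines are set out beside those of the 5 pluripotent lines without the knockdown whose feeder level was also under 400, mGS 1, iPS 1, 2 and 5 and ES R1. The 3 lines had already been seen to be low and come from Dnmt mGS and Dmrt mGS alone, so these values are a description and no test is drawn on here. Each difference given for lines split by feeder level is between equal-weighted route or group means. The averages given are over lines, so differences and averages can depart from each other. Perp read 250, 136 and 160 in the 3 knockdown lines, and 1818, 1162, 1745, 2106 and 700.2 in the 5 others (−2.89). Dnmt mGS 2 and Dmrt mGS 1 were under the background level for Perp, so −2.89 is a measured value, and no bound was computed. Plk2 read 201, 239 and 214, against 1719, 1389, 1932, 1576 and 808 (−2.60). Neither gene's groups overlapped, and for 12.5% of all genes the 3 knockdown lines likewise lay below all 5 others.

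Some genes that did not pass over all lines were also low in these 3. Pmaip1, the BH3-only protein Noxa, read 83.2, 83.4 and 68.9 in the 3 knockdown lines, all under the background level, and averaged 253 in the 5 others, so it was at least 1.57-fold lower. Btg2, an antiproliferative transcription cofactor, averaged 366 against 1189 (−1.70), and Phlda3, a PH-domain protein that restrains Akt, 420.0 against 1374 (−1.62). The difference was −1.40 for Psrc1, a spindle protein, −1.21 for the stress gene Ddit4 and −0.92 for the RNA-binding protein gene Zmat3. It was −0.74 for Bbc3, which encodes the BH3-only protein PUMA, −0.83 for Dcxr, −0.61 for Ercc5, −0.44 for Apaf1 and −0.40 for Ak1.

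Above all 5 others in the same 3 lines were 5 of the 32 genes, as were 18.4% of all genes. These included the ribonucleotide reductase gene Rrm2b, the damage sensor gene Ddb2 (0.69) and the sestrin gene Sesn1 (0.65). The rest were Tigar, a regulator of glycolysis (0.63), and Ei24 (0.20). Rrm2b read 292, 286 and 318 in the 3 knockdown lines and 132 to 195 in all 8 lines without the knockdown. With lines under the background level raised to it, Rrm2b was at least 1.83-fold higher in the 3 knockdown lines than in the 5 others. Ddb2 read 330, 505 and 382, against 154 to 263. The other 9 knockdown lines were set against mGS 2, ES B6-6 and ES BRC1, all with a feeder level over 400. The difference of equal-weighted group means was −0.58 for Perp, −0.26 for Plk2 and −0.44 for Eda2r. With the feeder level as a covariate over all lines, 18 of the 32 genes passed, 2 higher and 16 lower, with 28.9% of all genes passing. Route, ES strain and feeder level are spread unevenly over the lines, and the part of feeder cells in the differences was not tested beyond these values.

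**Figure D3:**
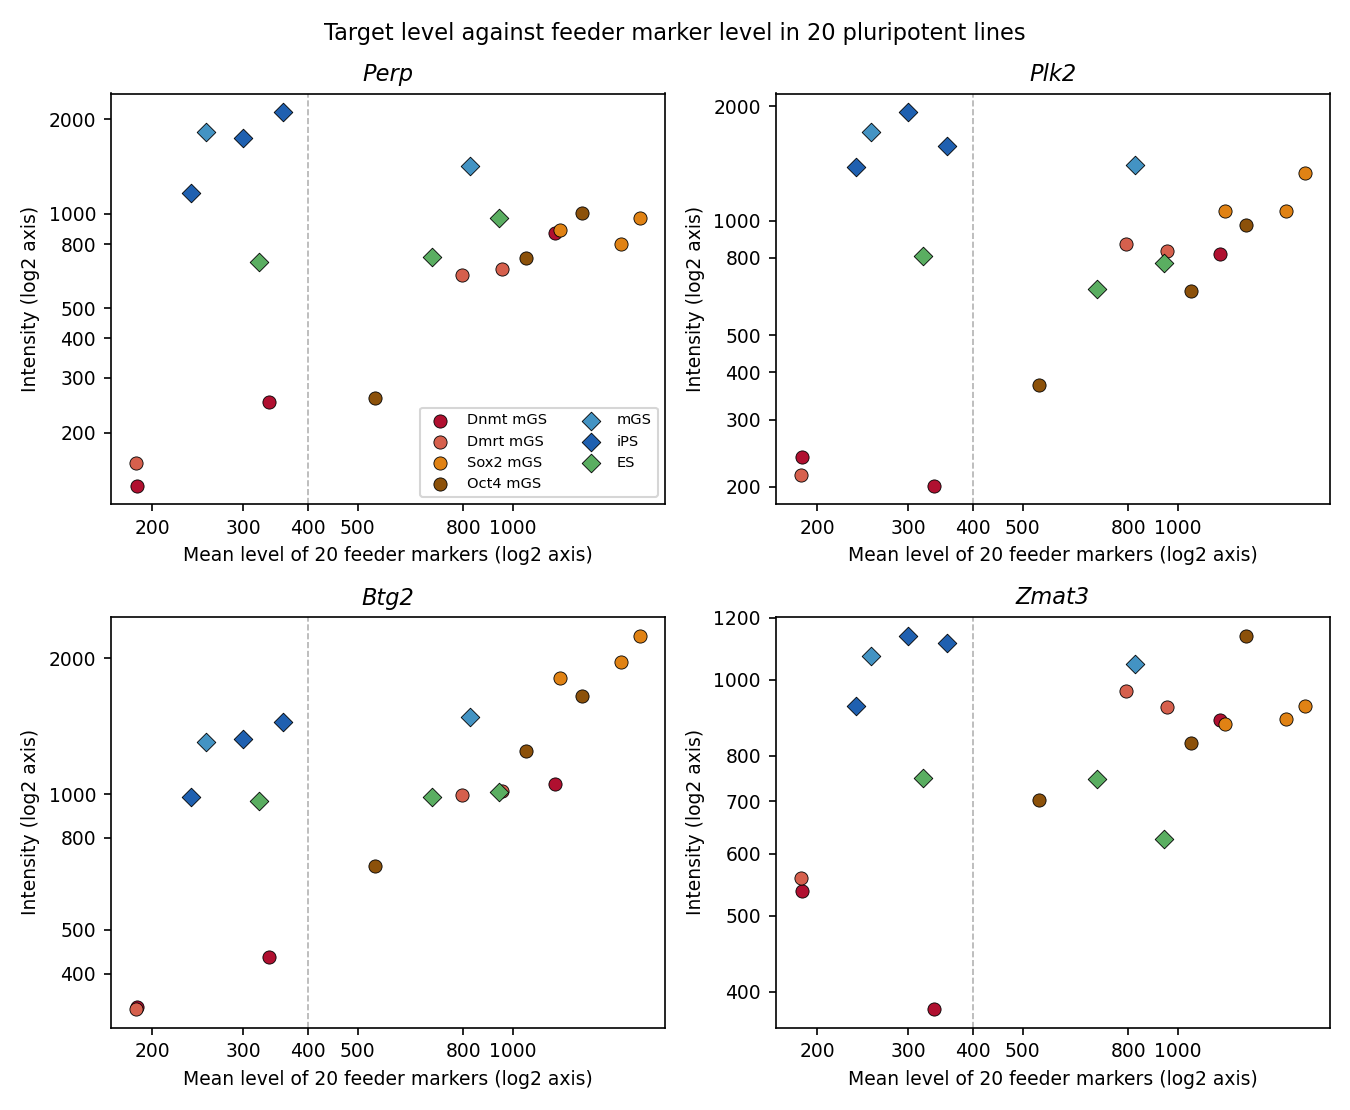
Intensity of Perp, Plk2, Btg2 and Zmat3 against the mean level of 20 feeder markers (both log2 axes) in 12 knockdown lines (circles) and 8 pluripotent lines without the knockdown (diamonds), with a dashed line at a feeder level of 400. Left of that line all 3 circles lie below all 5 diamonds for each of the 4 genes, as these lines do for 12.5% of all genes.

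**Figure D4:**
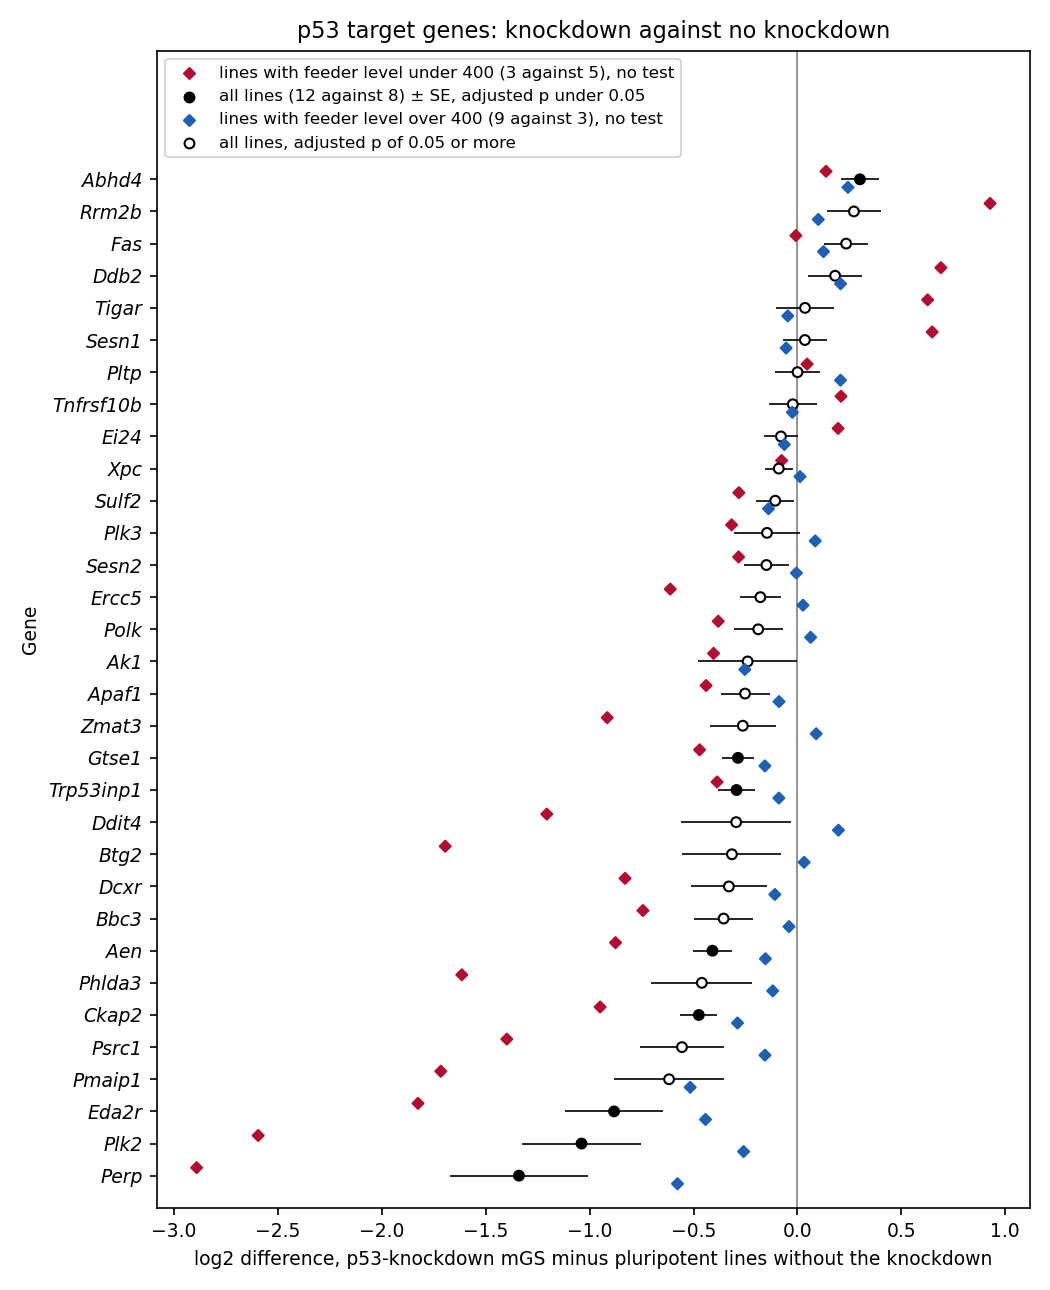
Log2 difference of the 32 genes between knockdown mGS lines and pluripotent lines without the knockdown, with groups weighted equally, over all lines (black circles ± SE, filled at an adjusted p under 0.05) and, with no test, over lines with a feeder level under 400 (red) and over 400 (blue). Perp, Plk2 and Eda2r have the lowest black points, at −1.34, −1.04 and −0.88, and red points at −2.89, −2.60 and −1.83. The red points of Perp, Pmaip1, Rrm2b and Fas are measured values that rest on lines under the background level. These were Dnmt mGS 2 and Dmrt mGS 1 for Perp and all 3 knockdown lines for Pmaip1. Among the 5 others they were 3 for Rrm2b and all 5 for Fas.

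By route, Dnmt mGS departed most from the 8 lines without the knockdown, and these 4 comparisons share those 8 lines. In Dnmt mGS 10 of the 32 genes fell and 2 rose, with 5.38% of all genes lower and 8.73% higher. Those that fell were Perp (−2.04 ± 0.49), Plk2 (−1.86 ± 0.42), Pmaip1 (at least 1.8-fold lower), Eda2r (−1.44 ± 0.35), Phlda3 (−1.22 ± 0.36), Btg2 (−1.15 ± 0.35), Psrc1 (−1.08 ± 0.30), Aen (−0.65 ± 0.14), Ckap2 (−0.61 ± 0.13) and Gtse1 (−0.37 ± 0.11). Ddb2 (0.65 ± 0.19) and Rrm2b (at least 1.46-fold higher) rose, and both calls were lost with arrays centred or quantile normalized. The Pmaip1 and Rrm2b folds are bounds, since 2 of 3 Dnmt mGS lines were under the background level for Pmaip1 and 4 of the 8 others for Rrm2b. The count rested on Dnmt mGS 1 and 2: it was 0 without Dnmt mGS 1, 3 without Dnmt mGS 2 and 16 without Dnmt mGS 3. Centring the arrays moved the share of higher genes among all called from 61.9% to 46.5% in Dnmt mGS, 45.7% to 22.8% in Dmrt mGS, 58.4% to 41.7% in Sox2 mGS and 74% to 42.5% in Oct4 mGS.

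In Dmrt mGS only Ckap2 fell (−0.68 ± 0.13, limma adjusted p = 0.012, background 3.04% of genes), and not without Dmrt mGS 1. In Sox2 mGS 4 genes passed, against 25.6% of all genes. Abhd4 (0.52 ± 0.14) and the death receptor Fas (at least 1.32-fold higher) rose, and the damage sensor Xpc (−0.35 ± 0.10) and Sesn1 (−0.46 ± 0.16) fell. None of these 4 passed with the feeder level as a covariate, and 0 passed without Sox2 mGS 3. Fas read 239, 203 and 245 in Sox2 mGS, against 137 to 219 in the lines without the knockdown, 5 of which were under the background level. In Oct4 mGS Abhd4 rose (0.51 ± 0.14, limma adjusted p = 0.018, background 16.8%). That call was lost without Oct4 mGS 1 or Oct4 mGS 2, and with only the groups compared fitted (limma adjusted p = 0.061).

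Spontaneous mGS share strain and cell of origin with the induced lines, which makes them the nearest comparison without a p53 knockdown, but there are 2 of them. None of the 32 genes passed limma's test, 8 had an unadjusted p under 0.05 (15.4% of all genes did), and 0.918% of all genes passed. For 5 genes all 12 knockdown lines lay below both spontaneous lines, against 1.91% of all genes, and for 0 above both, against 3.14%. These were Perp (−1.67 ± 0.55, adjusted p = 0.16), Plk2 (−1.37 ± 0.47, adjusted p = 0.18), Psrc1 (−0.68 ± 0.33, adjusted p = 0.34), Ckap2 (−0.50 ± 0.15, adjusted p = 0.12) and Bbc3 (−0.53 ± 0.23, adjusted p = 0.29), all from limma. Psrc1 read 513 to 2053 in knockdown lines, and 2288 and 2396 in spontaneous mGS. Bbc3 read 255 to 501, against 523 and 536. Of all genes called in this comparison 45.9% were higher, or 22.8% with arrays centred. Differences among spontaneous mGS, iPS and ES passed for 0 of the 32 genes in limma's F test, with 2 at an unadjusted p under 0.05 (8.02% of all genes), and for 0.391% of all genes. Perp and Plk2 nonetheless read lower in ES (means 790.3 and 746) than in iPS (1622 and 1617).

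Against GS the 7 pluripotent groups shared a pattern in which most genes that passed were higher, and these 7 comparisons share the 3 GS lines. With the percent of all genes higher and lower in parentheses, there were 17 higher and 3 lower in Dnmt mGS (19.1% and 30%), 16 higher and 4 lower in Dmrt mGS (17.6% and 24.1%), 16 higher and 3 lower in Sox2 mGS (19.4% and 24.6%) and 15 higher and 3 lower in Oct4 mGS (20.2% and 22.6%). For the groups without a p53 knockdown there were 19 higher and 3 lower in mGS (16.2% and 26.9%), 19 higher and 3 lower in iPS (18.5% and 35.5%) and 17 higher and 4 lower in ES (17.2% and 26%). Higher in all 7 were 14 of the 32 genes, as were 9.7% of all genes, and 1 gene, Xpc, was lower in all 7, as were 14.2% of all genes. The proliferation marker level was 1847 in GS and 2655 to 2861 in the other groups. The part of growth rate and of medium in these differences was not tested.

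**Figure D5:**
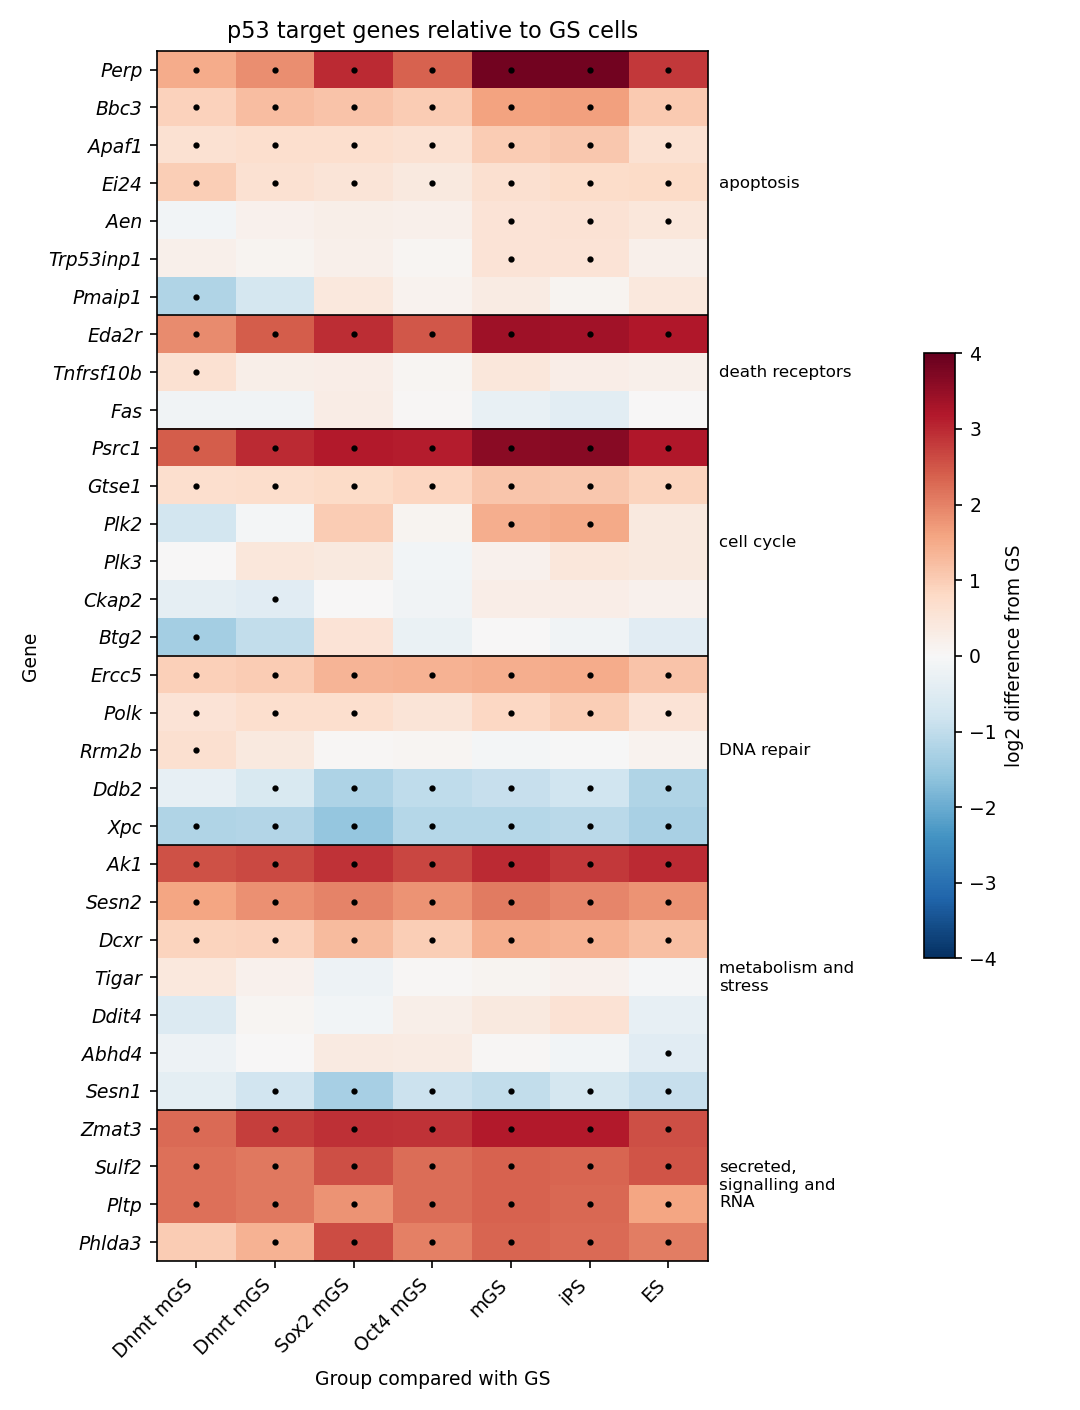
Measured log2 difference of each of the 32 genes (rows, by role) from GS in the 7 pluripotent groups (columns, knockdown routes left), with a black dot where the adjusted p was under 0.05; genes under the background level in GS have only a bound. Psrc1, Zmat3, Eda2r, Ak1, Perp, Sulf2, Pltp and Sesn2 are higher in every column and Xpc is lower in every column.

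Psrc1 had the largest measured difference from GS as a mean over the 7 comparisons (3.17), although Ak1 exceeded it in Dnmt mGS and Perp in spontaneous mGS and iPS, both with GS lines under the background level. It read 513, 1077 and 1908 for Dnmt mGS, 917, 1888 and 2053 for Dmrt mGS, 1688, 1779 and 1718 for Sox2 mGS and 1989.6, 1429 and 1709 for Oct4 mGS. The other groups read 2288 and 2396 in spontaneous mGS, 2182, 2324 and 2650.5 in iPS, 1899, 1913 and 1545 in ES and 280.2, 157 and 159 in GS, with GS 2 and GS 3 just under the background level and GS 1 above it. Every pluripotent line was above every GS line, and as a bound Psrc1 was at least 5.25-fold higher in Dnmt mGS and at least 12.3-fold higher in iPS. Zmat3, a zinc finger protein that binds RNA, read 379.9, 537 and 888 for Dnmt mGS, 558, 923 and 967 for Dmrt mGS, 891, 877 and 925 for Sox2 mGS and 1138, 829 and 702 for Oct4 mGS. It read 1071 and 1047 in spontaneous mGS, 926, 1138 and 1115 in iPS, 750.2, 746 and 626 in ES and 176, 98.4 and 93.5 in GS. GS 2 and GS 3 were under the background level, so the fold is a bound: the mean was at least 3.41-fold higher in Dnmt mGS and at least 6.38-fold higher in spontaneous mGS.

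Eda2r and Perp, whose line values are given above, had GS means of 116 and 111, under the background level. Taken against that level or a GS line's own higher value, Eda2r was at least 2.59-fold higher in Dnmt mGS, 5.52-fold in Sox2 mGS and 7.43-fold in spontaneous mGS. Perp was at least 1.92-fold higher in Dnmt mGS, 5.48-fold in Sox2 mGS and 10.1-fold in iPS. The Perp call in Dnmt mGS (limma adjusted p = 0.047) was lost without Dnmt mGS 1, Dnmt mGS 3 or any 1 GS line, and that in Dmrt mGS without Dmrt mGS 2, Dmrt mGS 3 or GS 2.

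Ak1, the cytosolic adenylate kinase, read 940.3, 1026 and 1736 for Dnmt mGS, 1177, 1336 and 1232 for Dmrt mGS, 1712, 1183 and 1684 for Sox2 mGS and 1609, 1207 and 1069 for Oct4 mGS. It read 1471 and 1694 in spontaneous mGS, 1404, 1673 and 1225 in iPS, 1376, 1554 and 1936 in ES and 583, 111 and 127 in GS. GS 2 and GS 3 were under the background level and GS 1 was not, so that Ak1 was at least 4.8-fold higher in Dnmt mGS and at least 6.49-fold higher in ES. Sulf2, an extracellular sulfatase that trims heparan sulfate, had narrow groups, with 1831, 1539 and 1915 for Dnmt mGS, 1525, 1658 and 1755 for Dmrt mGS, 2639, 1919.9 and 2328 for Sox2 mGS and 2160.3, 1526 and 1759 for Oct4 mGS. It read 1874 and 2007 in spontaneous mGS, 2032, 1944 and 1721 in iPS, 2075, 2122 and 2301 in ES and 507, 359 and 304 in GS. The lowest pluripotent line exceeded the highest GS line, and the difference of 2.11 to 2.58 carried the smallest adjusted p of the 32 genes in each of the 7 comparisons (limma adjusted p = 7.7e-10 in Sox2 mGS).

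Pltp, the phospholipid transfer protein, read 1511, 1302 and 1192 for Dnmt mGS, 1416, 1093 and 1191 for Dmrt mGS, 1029.7, 1008 and 924 for Sox2 mGS and 1194, 1079 and 1879.7 for Oct4 mGS. The other groups read 1606 and 1364 in spontaneous mGS, 1284, 1425 and 1561 in iPS, 1116, 701 and 778 in ES and 338, 258 and 268 in GS. The difference from GS was 1.57 in ES, the smallest of the 7, and 2.37 in spontaneous mGS. Sesn2, a sestrin that restrains mTORC1 under stress, read 1072, 1095 and 1230.0 for Dnmt mGS, 1382, 1406 and 1291 for Dmrt mGS, 1596, 1388 and 1476 for Sox2 mGS and 1583, 1214 and 1166 for Oct4 mGS. It read 2084 and 1241 in spontaneous mGS, 1475, 1659 and 1268 in iPS, 1086, 1504 and 1410.4 in ES and 495, 306 and 359.5 in GS. No pluripotent line overlapped GS, and the difference was 1.58 to 2.08. Each of Psrc1, Zmat3, Eda2r, Ak1, Sulf2, Pltp and Sesn2 kept its 7 calls when any 1 line was left out.

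The other 6 genes higher in all 7 groups shifted less. The endonuclease Ercc5 of nucleotide excision repair differed by 0.95 to 1.48, the carbonyl reductase Dcxr by 0.88 to 1.45 and Gtse1 by 0.66 to 1.11. Apaf1, the core of the apoptosome, differed by 0.60 to 1.07, and Ei24, an endoplasmic reticulum protein, by 0.38 to 0.99. Bbc3, under the background level in 2 of 3 GS lines, was at least 1.71-fold higher in Dnmt mGS and at least 2.78-fold higher in iPS. Its cultures disagreed in those lines, at 101 and 165 in GS 2 and 241.5 and 84.5 in GS 3. Those of GS 3 read 536.5 and 262 for Dcxr. Phlda3 passed in 6 groups, not in Dnmt mGS (1.00 ± 0.43), and Polk, a translesion polymerase, in 6, not in Oct4 mGS (0.52 ± 0.21, limma adjusted p = 0.056). Aen passed as higher in spontaneous mGS, iPS and ES, and Plk2 and Trp53inp1 in spontaneous mGS and iPS. No line left out ended a call of Ercc5, Bbc3 or Gtse1. Leaving out GS 2 ended calls of Apaf1, Dcxr, Ei24, Phlda3, Polk and Plk2, leaving out GS 1 ended calls of Apaf1, Ei24, Polk and Aen, and the spontaneous line mGS 1 carried the call of Trp53inp1 in its group. With only the groups compared fitted, calls were lost for Perp and Bbc3 in Dnmt mGS and for Dcxr in Dnmt, Dmrt and Oct4 mGS. With the feeder level as a covariate they were lost for Bbc3 in Sox2 mGS, Dcxr in Sox2 and Oct4 mGS and Apaf1 in Sox2 mGS, Oct4 mGS and ES, and Ei24 lost its call in Oct4 mGS with arrays centred or quantile normalized.

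The genes that ran against this pattern were the DNA damage sensors of nucleotide excision repair and 1 sestrin. Xpc read 300.4, 308 and 279.9 for Dnmt mGS, 315, 286 and 301 for Dmrt mGS, 249, 246 and 214 for Sox2 mGS and 301, 286 and 338 for Oct4 mGS. It read 309 and 305 in spontaneous mGS, 304, 309 and 349.6 in iPS, 353, 246 and 251 in ES and 667, 749.6 and 636 in GS. All 20 pluripotent lines were below all 3 GS lines, by −1.09 in iPS to −1.53 in Sox2 mGS. Ddb2 and Sesn1 were lower in 6 of the 7 groups, and in Dnmt mGS they differed by −0.32 ± 0.23 and −0.39 ± 0.19 without passing. In Dnmt mGS Btg2 (−1.34 ± 0.42) and Pmaip1 (at least 1.48-fold lower) fell and Tnfrsf10b, the TRAIL receptor, rose (0.60 ± 0.20), as did Rrm2b (at least 1.45-fold higher). Ckap2 fell in Dmrt mGS (−0.44 ± 0.16) and Abhd4 in ES (−0.44 ± 0.16). Each of these 6 single-group calls was lost when 1 of several lines, GS 1 among them, was left out.

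Whether routes that all carry a p53 knockdown differ among themselves was asked with limma's F test over the 4 routes. It was passed by 6 of the 32 genes (18.8%), no larger a share than the 19.9% of all genes. Sesn1 (adjusted p = 0.015) read 693, 756 and 544 for Dnmt mGS, 729.6, 436 and 419 for Dmrt mGS, 292, 452 and 311 for Sox2 mGS and 487, 439 and 515 for Oct4 mGS. It read 424 and 455 in spontaneous mGS, 530.2, 506 and 548 in iPS, 445, 443 and 489 in ES and 886, 986 and 731 in GS. Its mean was highest in Dnmt mGS and lowest in Sox2 mGS, with Dmrt mGS 1 close to Dnmt mGS. Btg2 (adjusted p = 0.017) ran the other way, with 436, 338 and 1051 for Dnmt mGS, 334, 1016 and 994 for Dmrt mGS, 1968, 1812 and 2245 for Sox2 mGS and 1647, 1246 and 694 for Oct4 mGS. It read 1303 and 1479.7 in spontaneous mGS, 984, 1326 and 1446 in iPS, 967, 985 and 1009 in ES and 2001, 1137 and 1112 in GS. The Sox2 mGS lines were all above the other pluripotent lines, and Dnmt mGS 1 and 2 and Dmrt mGS 1 were below all others.

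Ei24 (adjusted p = 0.026) read 3102, 3785 and 3579.6 for Dnmt mGS, 3222, 2361 and 2542 for Dmrt mGS, 3181, 2024 and 2374 for Sox2 mGS and 2461, 2046 and 2341 for Oct4 mGS. It read 2708 and 2681 in spontaneous mGS, 3076, 2612 and 3078 in iPS, 3095, 2625 and 3129 in ES and 1815, 1648 and 1782 in GS. Dnmt mGS was above Oct4 mGS in every line, and of the 12 knockdown lines 7 were below and 4 above the range of the pluripotent lines without the knockdown. Ddb2 (adjusted p = 0.03) read 329.8, 505 and 248 for Dnmt mGS, 382, 238 and 249.7 for Dmrt mGS, 179, 204 and 169.6 for Sox2 mGS and 203, 204 and 245 for Oct4 mGS. It read 223 and 231 in spontaneous mGS, 262, 232 and 258 in iPS, 263, 164 and 154 in ES and 475, 395 and 432 in GS. The lines high in Ddb2 were Dnmt mGS 1 and 2 and Dmrt mGS 1, and GS read 395 to 475. Phlda3 (adjusted p = 0.044) read 335, 488 and 1400.2 for Dnmt mGS, 453, 1059 and 1081 for Dmrt mGS, 1779, 1721 and 2132 for Sox2 mGS and 1896, 1216 and 825 for Oct4 mGS, with its highest mean in Sox2 mGS. Abhd4 (adjusted p = 0.047) was higher in Sox2 mGS and Oct4 mGS (means 1802 and 1779) than in Dnmt mGS and Dmrt mGS (1236 and 1432). The feeder level averaged 1517 in Sox2 mGS and 918 in Oct4 mGS, against 423 in Dnmt mGS and 520 in Dmrt mGS. With it as a covariate, or with only the 4 routes fitted, 0 of the 32 genes passed, and 0 passed without Sox2 mGS 3, 1 without Dnmt mGS 1 and 12 without Dnmt mGS 3.

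The remaining genes passed in few comparisons or none. Plk3, a stress-responsive polo-like kinase, Tigar and Ddit4, an inhibitor of mTORC1, passed in none of the comparisons over all lines, and Fas only in Sox2 mGS against lines without the knockdown. Ddit4 ran from 405 to 1189 in knockdown lines, 418 to 1836 in the other pluripotent lines and 518 to 1633 in GS, a wide spread within groups. Tigar ran from 463 to 1085, against 479 to 827 and 628 to 700.3.

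Genes of the p53 pathway outside the list of 34, regulators and further targets, were read from a list of 40, of which 34 had a probe set. Between knockdown mGS and pluripotent lines without the knockdown 8 fell, 4 rose and 22 did not pass, with 8.2% of all genes lower and 15% higher. How these calls depend on single lines or on the feeder level was not tested. Mdm2 (−0.50 ± 0.14, 1627 against 2303) and its partner Mdm4 (−0.65 ± 0.12), the main negative regulators of p53, fell. So did the growth-arrest genes Sfn, which encodes 14-3-3 sigma (−1.26 ± 0.19), and Gadd45a (−1.01 ± 0.21), the acetyltransferase Kat5 (−0.40 ± 0.06), the cyclin Ccng2 (−0.39 ± 0.12), the apoptosis inhibitor Bcl2l1 (−0.36 ± 0.07) and the ubiquitin ligase Rchy1 (−0.18 ± 0.05). Those that rose were the apoptosis effector Bak1 (0.63 ± 0.14), the p53-binding proteins Ppp1r13b (0.64 ± 0.12) and Trp53bp1 (0.22 ± 0.05) and the kinase Hipk2 (0.41 ± 0.07). Against spontaneous mGS 1 of the 34, Kat5, fell (−0.45 ± 0.09, limma adjusted p = 0.03), with 0.918% of all genes passing. The median difference of the 34 in the first comparison was 0.05, beside 0.06 for all genes.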

How the data were processed

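Per the file headers and labels, the deposited table holds 1 intensity value on a linear scale for each of 28856 probe sets on 46 biotin-labelled whole-transcript arrays. The sources used here do not give how the authors scaled those intensities, and the submitters' processing notes name the assembly mm9. Per the labels' protocols, feeder cells were depleted on gelatin before RNA was taken.

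Log2 was taken with no offset. Probe sets with 1 symbol in GEO's platform annotation (21789) were kept, those with several (1621) or none (5446) were left out, and for 999 genes with more than 1 the probe set with the highest mean was used, which left 19938 genes. The 2 cultures of a line were averaged, and the 23 lines entered 1 limma fit with 8 group means (limma 3.58.1, R 4.3.3, lmFit and eBayes, 15 residual and 2.71 prior degrees of freedom). The mean of the 4 routes was set against the equal-weighted mean of spontaneous mGS, iPS and ES, and against spontaneous mGS; each group was set against GS, and each route against the lines without the knockdown; F tests covered the 4 routes and the 3 groups without the knockdown. Benjamini-Hochberg adjustment ran over all genes within each comparison at 0.05. p-values measure the spread between lines, and the small number of lines per group limits precision.

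The members, the further gene lists and the tests were chosen with earlier results of these data known. Line values are given for members called in the first comparison, the first 8 by mean difference among those higher or lower in all 7 comparisons with GS, and the 4 with the smallest p among routes. Those of Xpc and Phlda3, and of Pmaip1, Rrm2b and Fas in some lines, were added after their values were seen. Alternatives treated arrays as independent, modelled line by duplicateCorrelation (statmod 1.5.0) or culture number as a block, fitted only the groups compared, used quantile normalization or centring, left out the 40% dimmest genes, averaged probe sets, used a variance trend, fitted the feeder level, or left out each line. Those added after the data were seen split lines at a feeder level of 400 or left out culture 1 of Oct4 mGS 1 or culture 2 of ES R1. Where at least 50% of the lines on the dimmer side were under the background level, every line under it was raised to it and the fold is given as a bound. In the split at a feeder level of 400 this was done only where the mean of a side was under that level. The fit was tested on simulated data. Figures and motif searches used matplotlib 3.10.9, pandas 2.3.3 and numpy 2.4.6 under Python 3.11.15.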

Additional observations from a re-analysis of the deposited data

Results flagged for a closer look

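For 6 of the 32 genes the 4 routes that share a p53 knockdown differed from each other in limma's F test: Sesn1 (adjusted p = 0.015), Btg2 (adjusted p = 0.017), Ei24 (adjusted p = 0.026), Ddb2 (adjusted p = 0.0295), Phlda3 (adjusted p = 0.044) and Abhd4 (adjusted p = 0.047). These are 18.8% of the 32, no larger a share than the background of 19.9% of all genes. Sesn1, Ei24 and Ddb2 had their highest route mean in Dnmt mGS, Btg2, Phlda3 and Abhd4 in Sox2 mGS. None of the 6 passed with the feeder marker level as a covariate or with only the 4 routes fitted. Sesn1 lost its call without Dnmt mGS 1, Sox2 mGS 1 or Sox2 mGS 3, and Btg2 without Dnmt mGS 1 or Sox2 mGS 3. Ei24 lost its call without Dnmt mGS 2, Dnmt mGS 3, Sox2 mGS 3 or Oct4 mGS 2, and Ddb2 without Dnmt mGS 1, Dnmt mGS 2, Sox2 mGS 1 or Sox2 mGS 3. Phlda3 lost its call without any 1 of 7 of the 12 lines (Dnmt mGS 1 or 2, Sox2 mGS 1, 2 or 3 and Oct4 mGS 1 or 2). Abhd4 lost its call without any 1 of 10 of the 12, all except Dnmt mGS 2 and Oct4 mGS 3, and also with arrays centred or without culture 1 of Oct4 mGS 1.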

How the results depend on the processing

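Counts are of the 32 measured genes, and the cause of each shift was not tested. The culture numbers showed no pairing shared by all lines. Deviations of same-numbered cultures correlated at −0.44 to 0.39 (median 0.002) over 253 pairs of lines, 181 of them at 0.1 or less. Whether some lines were handled together was not tested. The percent of all genes that passed in the same fit follows each count in parentheses. With culture number as a replicate block over 46 arrays, the count was 18 (44.9%, main value 8) for knockdown lines against pluripotent lines without the knockdown and 8 (15.2%, main 0) against spontaneous mGS. In the same fit it was 20 (32.3%), 13 (21.1%), 9 (45.4%) and 9 (39.7%) for Dnmt, Dmrt, Sox2 and Oct4 mGS against the lines without the knockdown (main 12, 1, 4 and 1), 23 (53.1%) among routes (main 6) and 3 (8.39%) among spontaneous mGS, iPS and ES (main 0). Treating 46 arrays as independent gave 18 (45.3%), 8 (15.8%), 21 (32.7%), 14 (21.7%), 9 (45.9%), 10 (40.2%), 23 (53.8%) and 3 (8.72%) in the same order. These 2 fits take cultures of a line as separate samples. With the line as a random block the counts that moved by over 1.5 times were 5 (4.84%) against spontaneous mGS, 9 (8.04%) in Dmrt mGS, 8 (20.1%) in Oct4 mGS, 17 (31.2%) among routes and 1 (2.33%) among the groups without the knockdown. With the feeder level as a covariate they were 18 (28.9%) for all knockdown lines, 6 (3.52%) against spontaneous mGS, 9 (7.53%), 7 (16%) and 10 (19.7%) in Dmrt, Sox2 and Oct4 mGS, 0 (7.04%) among routes and 1 (1%) among the groups without the knockdown. Split at a feeder level of 400, knockdown against no knockdown gave 21 (29.8%) under it, and 0 (2.19%) in limma over it, with 3 at an unadjusted p under 0.05 (17.5%). The split was made after its 3 knockdown lines had been seen to be low, so these counts restate that and support nothing. Fitting only the groups compared gave 10 (30.6%) in Sox2 mGS, 2 (10.5%) in Oct4 mGS and 0 (8.58%) among routes, and Oct4 mGS had 4 (11%) with arrays centred, 2 (20.4%) without the dimmest 40% of genes and 4 (15.3%) without culture 1 of Oct4 mGS 1. Without culture 2 of ES R1 no count moved by over 1.5 times, and the call of Polk in ES against GS was lost (0.50, limma adjusted p = 0.059).

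Leaving out each line in turn gave 3 (without mGS 1) to 11 (without Dnmt mGS 3) for all knockdown lines against those without, 0 to 1 against spontaneous mGS, 0 to 16 in Dnmt mGS, 0 (without Dmrt mGS 1) to 1 in Dmrt mGS, 0 (without Sox2 mGS 3) to 4 in Sox2 mGS, and 0 (without Oct4 mGS 1 or 2) to 2 (without ES B6-6 or Oct4 mGS 3) in Oct4 mGS. Among routes it gave 0 (without Sox2 mGS 3) to 12 (without Dnmt mGS 3), with 1 without Dnmt mGS 1, 2 without Sox2 mGS 1 and 3 without Dnmt mGS 2 or Oct4 mGS 2. Among the groups without the knockdown it gave 0 to 1 (without ES R1). Without 1 of the spontaneous mGS lines, the lone line is assumed to vary like the other groups. The 7 counts against GS stayed within 1.5 times of the main count under every alternative run, and no called gene reversed direction. Quantile normalization, averaged probe sets and a variance trend moved no count by over 1.5 times.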
